A study of Homo sapiens with 12 samples.

Results

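Expressed genes spanning over 300 kb were examined in the human lymphoma line OCI-Ly7, which was made from a diffuse large B-cell tumour of the germinal-centre class. A gene was included when its exons, from the lowest to the highest base in the GRCh38 annotation, covered more than 300 kb and its mean in the 3 vehicle libraries was at least 5 CPM (a gene's count over the library's total, times 1e+06). Of 78892 genes in the table, 1297 spanned over 300 kb and 9736 reached that level. Of the 243 that did both, RPTOR, CAMK1D, TRAPPC9 and STX8 were left out, so that 239 genes remained. All 239 passed the filter on low counts and were among the 17869 genes tested.

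The 4 groups had 3 libraries each: both drugs (the combination), an HDAC3 inhibitor alone, 5-azacitidine alone, and vehicle. Cells in the combination and azacitidine groups had 100 nM azacitidine daily through days 0 to 4. Those in the combination and inhibitor groups had 15 µM inhibitor on days 2 and 4. All cells, vehicle included, were collected on day 5. All groups share 1 line, and the labels do not say whether replicates were separate cultures, so the p-values below reflect only how far these libraries scatter, and that scatter may be technical. Which compound served as the inhibitor was not stated. Since bulk RNA was measured, fewer cells of a kind and less RNA per cell cannot be told apart.

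Long genes are mostly intron. RNA polymerase II has to travel the whole length of a transcript before a complete messenger can be made, and for a long gene this takes hours. The span used here covers all annotated exons of a gene. Which start sites these cells use was not known, so the length transcribed may be shorter. Their output is known to depend on factors that release the polymerase from pausing, keep it moving, relieve DNA supercoiling and prevent early polyadenylation within introns. Some of them, such as WWOX and IMMP2L, lie at common fragile sites, which break under replication stress. Azacitidine, a nucleoside that cells incorporate in place of cytidine, locks DNA methyltransferases onto DNA, and HDAC3 is a histone deacetylase of co-repressor complexes.

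Libraries held between 35947872 and 36337086 counts. All 10 B-cell markers were present, with vehicle means between 52.4 CPM for MME and 871 CPM for MS4A1. Of 16 markers of other cell types, COL1A2, HBB, KRT18 and S100A8 were at 0 in all 12 libraries, PECAM1 had 66.2 CPM in vehicle, and the others did not exceed 9.97 CPM in any library. Azacitidine replicate 1 and combination replicate 3 stood apart from their groups in the share of mitochondrially encoded counts, at 13.8% and 15.3%, against 10% and 10.2% in the other azacitidine libraries and 12.5% and 12.9% in the other combination libraries. The count of called genes is given with and without this pair.

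The 239 genes had a median span of 394 kb, a median of 27 separate exon blocks and a median exonic length of 11 kb, so that exons filled 2.48% of the span at the median. Among 9493 genes of at least 5 CPM in vehicle and at most 300 kb, the medians were 31.8 kb, 11 blocks, 5.55 kb and 18.4%. The longest gap between exons had a median of 97.1 kb in the long genes and was the first gap in 27 of them. By GENCODE 29, 222 were protein-coding, 5 antisense, 5 lincRNA and 5 processed transcripts, and 2 were not in that release. In 8 genes more than 20% of exonic bases were shared with another gene, and reads there were left out of the authors' counts. These included FTX at 33.9%, RRN3P2 at 29.4%, MKLN1 at 22.5% and STAG1 at 21.2%, whose values are less certain for that reason.

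Several long genes start back to back with a short gene on the other strand. The 4 promoters printed here are from RefSeq on GRCh38.p14. They are the windows, from 250 bases before to 50 bases after the start, of the long genes in the 4 such pairs with the largest difference between partners in the combination against the inhibitor, among pairs whose windows overlap. They were picked after that difference was known and are shown because the window of the long gene runs into that of its short partner, by 291 of 300 bases at CLASP1, 253 at MRPS30-DT, 150 at COG5 and 23 at FAF1. Of the genes in these pairs, FAF1 alone was called in the combination against the inhibitor. The partners NIFK-AS1 and DUS4L had only 5.11 and 6.57 CPM in vehicle. Capitals mark CG, the dinucleotide that DNA methyltransferases act on. CLASP1 (chr2:121649413-121649712, minus strand, 26 CG) pairs with NIFK-AS1, FAF1 (chr1:50960218-50960517, minus strand, 26 CG) with CDKN2C, COG5 (chr7:107563871-107564170, minus strand, 30 CG) with DUS4L, and MRPS30-DT (chr5:44808744-44809043, minus strand, 20 CG) with MRPS30.
CLASP1: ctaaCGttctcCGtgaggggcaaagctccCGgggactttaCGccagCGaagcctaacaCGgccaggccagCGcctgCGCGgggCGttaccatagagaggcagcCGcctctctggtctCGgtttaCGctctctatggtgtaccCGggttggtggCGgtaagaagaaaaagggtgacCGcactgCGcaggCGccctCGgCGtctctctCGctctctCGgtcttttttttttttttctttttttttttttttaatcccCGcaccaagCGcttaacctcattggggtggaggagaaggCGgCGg
FAF1: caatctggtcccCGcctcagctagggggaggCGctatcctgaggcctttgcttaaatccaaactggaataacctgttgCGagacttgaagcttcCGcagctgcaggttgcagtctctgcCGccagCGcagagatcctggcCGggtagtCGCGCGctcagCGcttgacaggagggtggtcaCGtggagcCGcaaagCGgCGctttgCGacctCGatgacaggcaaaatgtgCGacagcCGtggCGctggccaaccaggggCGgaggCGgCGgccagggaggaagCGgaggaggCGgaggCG
COG5: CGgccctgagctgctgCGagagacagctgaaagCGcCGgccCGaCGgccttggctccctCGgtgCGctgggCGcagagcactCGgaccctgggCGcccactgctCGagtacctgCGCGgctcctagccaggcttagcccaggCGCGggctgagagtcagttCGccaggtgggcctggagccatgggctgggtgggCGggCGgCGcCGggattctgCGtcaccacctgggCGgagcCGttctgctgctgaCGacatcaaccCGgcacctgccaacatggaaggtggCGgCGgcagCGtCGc
MRPS30-DT: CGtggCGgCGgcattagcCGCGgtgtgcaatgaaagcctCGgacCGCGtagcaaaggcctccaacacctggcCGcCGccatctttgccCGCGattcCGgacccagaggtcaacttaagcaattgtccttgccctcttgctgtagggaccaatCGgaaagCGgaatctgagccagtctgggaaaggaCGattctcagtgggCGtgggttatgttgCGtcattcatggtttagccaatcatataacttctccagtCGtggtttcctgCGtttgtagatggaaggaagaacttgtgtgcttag

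Of the 239 long genes, 198 had a promoter in the RefSeq table, and its median number of CG was 27. The median was also 27 in 7589 promoters of expressed genes of at most 300 kb, and 14 over 35116 promoters of 300 bases. At least 10 CG were present in 80.3% of the long genes' promoters, against 91.7% of those of the shorter expressed genes. The median log2 fold change of the combination against the inhibitor was -0.12 in 39 long genes with 0 to 9 CG, -0.20 in 28 with 10 to 19, -0.12 in 46 with 20 to 29, and -0.11 in 85 with over 29. The genes called lower (edgeR, adjusted p under 0.05) numbered 9, 11, 10 and 17 in the same bins. Beside them, 21.8% of the 239 long genes, 4.38% of the shorter expressed genes and 2.83% of all genes tested were called lower. The bin of 10 to 19 CG had the lowest median and the highest share, but it held only 28 genes. The medians showed no steady trend with CG number.

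Most long genes were lower in the combination than in the inhibitor alone, which is the comparison of azacitidine in cells that also had the inhibitor. Of the 239, 52 fell and 5 rose (edgeR quasi-likelihood test, Benjamini-Hochberg adjusted p under 0.05 over all 17869 genes), which is 21.8% and 2.09%. Over all genes tested 2.83% fell and 4.51% rose, and over the expressed genes of at most 300 kb 4.38% fell and 4.67% rose. The median log2 fold change was -0.13 in the long genes, 0.01 over all genes and -0.01 in the shorter expressed genes. It was negative in 192 long genes and positive in 47. In 110 long genes every combination library was below every inhibitor library, and in 11 every one was above, against 11.5% and 13.3% of all genes tested.

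The vehicle libraries that chose the genes are not compared there, but they entered the filter, the scaling and the shared estimate of the spread. In a fit of only the 2 groups compared, 21.8% of the long genes fell as well. Leaving out single libraries gave between 29 and 59 long genes that fell. The count was 29 without combination replicate 1, 34 without inhibitor replicate 2 and 32 without inhibitor replicate 3. Without the pair of high mitochondrial share, 55 fell and 2 rose.

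**Figure D1:**
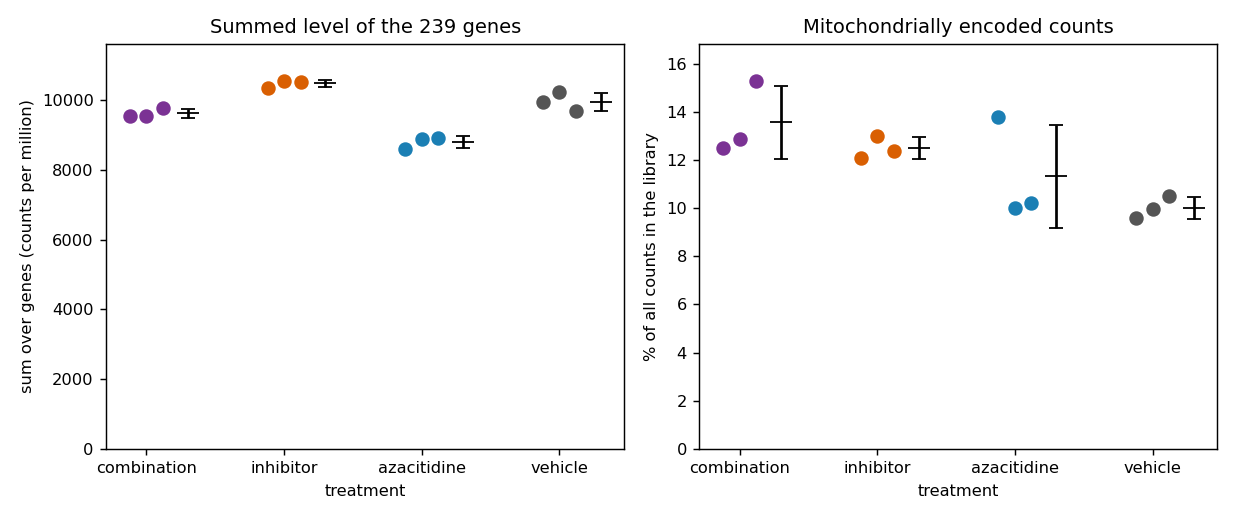
Left, the summed level of the 239 genes in each library in CPM, by treatment; right, the share of all counts that mitochondrially encoded genes took. Points are libraries, and the bar beside them is the mean with its SD (n = 3). The 3 combination libraries (9535 to 9780 CPM) sit below the 3 inhibitor libraries (10357 to 10559 CPM), and the 3 azacitidine libraries (8590 to 8915 CPM) below the 3 vehicle libraries (9685 to 10225 CPM).

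Added up, the 239 genes had 9535, 9557 and 9780 CPM in the combination, against 10357, 10559 and 10537 CPM in the inhibitor. They had 8590, 8892 and 8915 CPM in azacitidine, against 9945, 10225 and 9685 CPM in vehicle. In both pairs of groups the libraries did not overlap. The vehicle level chose the genes, so the second pair is a description only. The mean was 8.21% lower in the combination than in the inhibitor and 11.6% lower in azacitidine than in vehicle. Scaled to the counts outside the mitochondrial genes the differences were 7.07% and 10.3%. The mitochondrial share averaged 13.6% ± 1.51 in the combination and 12.5% ± 0.458 in the inhibitor, and 11.3% ± 2.14 in azacitidine and 10% ± 0.462 in vehicle (SD, n = 3 each), and its part in the sums was not tested beyond this.

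Among the single genes that fell in the combination against the inhibitor, SYNE2 had the largest change. It encodes nesprin-2, a giant protein that ties the nuclear envelope to the cytoskeleton, and spans chr14:63761899-64226433. SYNE2 had 83.7, 91.1 and 95.4 CPM in the combination, against 122, 129 and 148 CPM in the inhibitor. The groups did not overlap, as the choice of these genes required. The log2 fold change was -0.55 ± 0.07 (SE), 0.682-fold, adjusted p = 1e-05 (edgeR). LPP, a LIM-domain protein of focal adhesions at chr3:188153284-188890671, had 17.3, 18.6 and 18.6 CPM in the combination, against 25.3, 23.9 and 27.4 CPM in the inhibitor. Its log2 fold change was -0.48 ± 0.08, adjusted p = 0.000165 by the same edgeR test. DIAPH2, a formin that assembles actin filaments, at chrX:96684712-97604997, had 17.7, 19 and 20.6 CPM in the combination, against 24.9, 26.1 and 28.2 CPM in the inhibitor. That is -0.46 ± 0.08 on the log2 scale.

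SMYD3, a lysine methyltransferase at chr1:245749342-246507312, had 14.7, 14.8 and 13.8 CPM in the combination, against 19.1, 19.8 and 20.2 CPM in the inhibitor. STS, the steroid sulfatase gene at chrX:7147237-7804358, had 26.5, 25.3 and 25.3 CPM in the combination, against 34.4, 34.9 and 34.7 CPM in the inhibitor. The log2 fold changes were -0.44 ± 0.08 for SMYD3 and -0.42 ± 0.06 for STS. PCDH9, a protocadherin, had 11.4, 13 and 13.2 CPM in the combination, against 17.8, 17.3 and 16.2 CPM in the inhibitor. KCNQ5, a voltage-gated potassium channel, had 13.3, 14.8 and 12.8 CPM in the combination, against 17.6, 18.3 and 19.1 CPM in the inhibitor. FTX, a long non-coding RNA of the X-inactivation centre, had 8.98, 9.15 and 9.13 CPM in the combination, against 12.8, 12.2 and 11.5 CPM in the inhibitor. The leading falls were picked among genes whose combination and inhibitor libraries did not overlap, so that separation is not a finding of its own.

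VPS13B, a lipid-transfer protein of the Golgi, completed the leading falls together with NFIB, a nuclear factor I transcription factor. VPS13B had 14.3, 17.7 and 18.2 CPM in the combination, against 20, 24.2 and 24.4 CPM in the inhibitor (log2 -0.44 ± 0.10). Its adjusted p of 0.00693 was 0.0728 at most without combination replicate 1 or inhibitor replicate 3. NFIB had 6.98, 7.27 and 8.04 CPM in the combination, against 9.60, 10.5 and 9.96 CPM in the inhibitor (log2 -0.42 ± 0.11), and its adjusted p of 0.0169 was 0.0975 at most without combination replicate 1, inhibitor replicate 2 or inhibitor replicate 3. PCDH9 and FTX, with edgeR adjusted p of 0.00328 and 0.00364, missed the threshold with an offset for GC content and exonic length, at 0.0632 and 0.136.

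The 5 long genes that rose in this comparison changed less. MAPK10, which encodes the stress kinase JNK3, had 44.7, 44.5 and 47.9 CPM in the combination, against 38.8, 36.8 and 37.7 CPM in the inhibitor (log2 0.29 ± 0.06, adjusted p = 0.00558, edgeR). MAPK10 kept its call in every alternative run for it. LDLRAD4, a regulator of TGF-beta signalling, had 34.7, 27.8 and 27.9 CPM in the combination, against 25.9, 26.6 and 22.8 CPM in the inhibitor. MSR1, a scavenger receptor, had 45.0, 44.4 and 43.9 CPM in the combination, against 38.2, 38.7 and 40.3 CPM in the inhibitor. CTNNA1, alpha-catenin of cell junctions, had 93.6, 89.8 and 97.4 CPM in the combination, against 85.3, 81.6 and 80.8 CPM in the inhibitor. The fifth was RRN3P2, a pseudogene whose reads can be split with its near-identical copies. The last 4 had adjusted p between 0.0169 and 0.0481, and each lost its call in at least 6 of the alternatives.

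**Figure D2:**
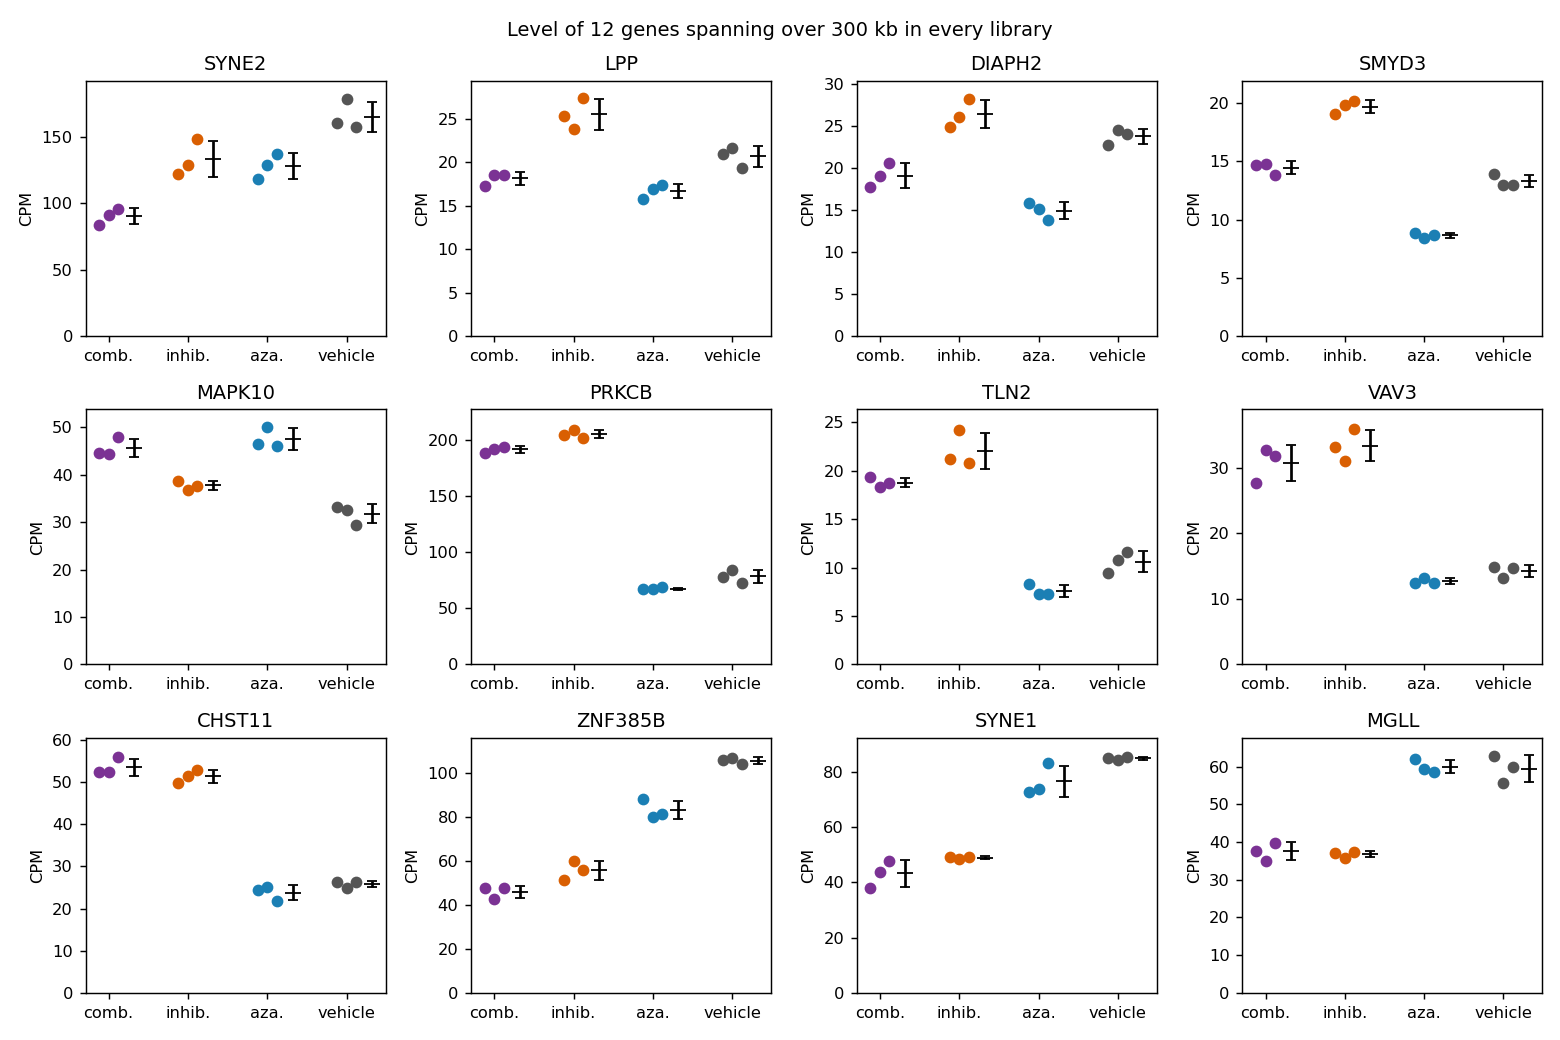
Level in CPM of 12 long genes in each library: the 4 leading falls and the leading rise of the combination against the inhibitor, then the 4 leading rises and 3 leading falls of the combination against azacitidine. Points are libraries by treatment (combination, inhibitor, azacitidine, vehicle) and bars are the mean with its SD (n = 3); every axis starts at 0. SYNE2, LPP, DIAPH2 and SMYD3 are lower in the combination than in the inhibitor, and PRKCB, TLN2, VAV3 and CHST11 are higher in the combination than in azacitidine.

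Azacitidine alone against vehicle is the matching comparison in cells without the inhibitor. The vehicle level chose these genes, and the 4 genes left out were left out for their fall here, so its values are a description. By the same threshold 91 long genes were lower and 7 higher (38.1% and 2.93%), beside 4.75% and 4.31% of all genes tested, and the median log2 fold change was -0.17. Of the shorter expressed genes 7.53% were lower and 5.0% higher, with a median of -0.01. DIAPH2 had 15.8, 15.1 and 13.8 CPM in azacitidine, against 22.8, 24.5 and 24.1 CPM in vehicle, a log2 fold change of -0.68 ± 0.08. SMYD3 had 8.83, 8.43 and 8.65 CPM in azacitidine, against 13.9, 13 and 13 CPM in vehicle (-0.63 ± 0.08). GMDS, which makes GDP-fucose precursors, had 16.7, 18.8 and 18.6 CPM in azacitidine, against 26.8, 28.1 and 28.0 CPM in vehicle (-0.62 ± 0.07). A lack of overlap between groups was again part of the choice of these 3 genes. DENND1A, an exchange factor of Rab35, was at -0.59 ± 0.07, and SLC39A11, a zinc transporter, at -0.59 ± 0.07.

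The highest log2 fold changes of azacitidine against vehicle without overlap between groups were those of MAPK10 (0.58 ± 0.06), PDE4B (0.55 ± 0.08), MSR1 (0.54 ± 0.06), DMD (0.39 ± 0.07), RRN3P2 (0.36 ± 0.06) and MTUS2 (0.30 ± 0.10), of which MTUS2 was not called. MAPK10 had 46.6, 50.2 and 46 CPM in azacitidine, against 33.3, 32.5 and 29.5 CPM in vehicle. DMD, the dystrophin gene and the longest here, had 62.6, 72.6 and 63.0 CPM in azacitidine, against 55.2, 49.7 and 46 CPM in vehicle. Dystrophin messenger was thus among the 7 long genes called higher.

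The 2 comparisons of azacitidine, with and without the inhibitor, share no library, and are set side by side as a description, since vehicle chose the genes. Their log2 fold changes had the same sign in 194 of the 239 genes (81.2%), both negative in 169 and both positive in 25. The sign was the same in 60.4% of all genes tested and in 61.3% of the shorter expressed genes. Because most long genes were negative in each comparison, much of this agreement in sign follows from the 2 counts of negative genes, 192 and 191. Across genes, which are not independent replicates, Pearson's r was 0.51 and Spearman's rank correlation 0.44. Of the 52 genes that fell in the combination against the inhibitor, 36 (69.2%) were also called lower in azacitidine against vehicle, which is 39.6% of the 91 called there. Of all 239 long genes 38.1% were called lower there. The same overlap over all genes tested is not given here. One gene, CTNNA1, was called in opposite directions. It had 56.1, 56.9 and 54.7 CPM in azacitidine, against 64.8, 66.1 and 61.3 CPM in vehicle.

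**Figure D3:**
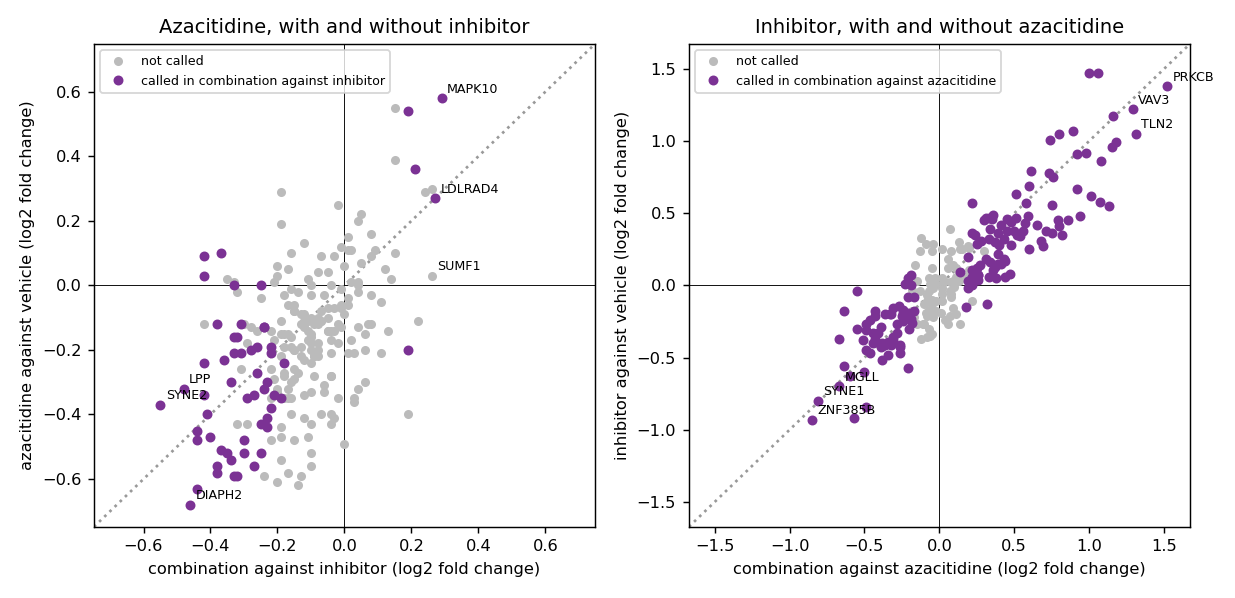
Each point is 1 of the 239 long genes. Left, the log2 fold change of the combination against the inhibitor (horizontal) and of azacitidine against vehicle (vertical); right, that of the combination against azacitidine (horizontal) and of the inhibitor against vehicle (vertical). Purple points were called in the comparison on the horizontal axis and the dotted line marks equal values; the same sign is seen in 194 genes on the left and 205 on the right.

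The shift grew with the span of the gene and did not start at 300 kb. In the combination against the inhibitor the median log2 fold change of expressed genes was 0.02 at 0 to 25 kb, 0.00 at 25 to 50 kb, -0.03 at 50 to 100 kb, -0.06 at 100 to 200 kb and -0.09 at 200 to 300 kb. It was -0.12 in the 178 genes of 300 to 500 kb and -0.17 in the 61 genes over 500 kb. The share that fell was 1.95% in the shortest bin of 3991 genes, 14.4% at 200 to 300 kb, 19.7% at 300 to 500 kb and 27.9% over 500 kb. In azacitidine against vehicle, as a description, the share called lower was 4.79% in the shortest bin, 34.8% at 300 to 500 kb and 47.5% over 500 kb. Other traits moved with the change as much as span did. Over 9732 expressed genes the combination against inhibitor log2 fold change had a Pearson's r of -0.20 with log span and -0.23 with the number of exon blocks. With GC content it was 0.23 over 9551 genes. Which of these traits the shift follows was not tested. Within the 239 genes the relation to span was weak. The correlation of the combination against inhibitor log2 fold change with log span was -0.11 (Pearson, 239 genes), and the median was -0.10 in 121 genes of 300 to 400 kb, -0.16 in 57 of 400 to 500 kb, -0.15 in 35 of 500 to 700 kb and -0.17 in 26 over 700 kb.

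**Figure D4:**
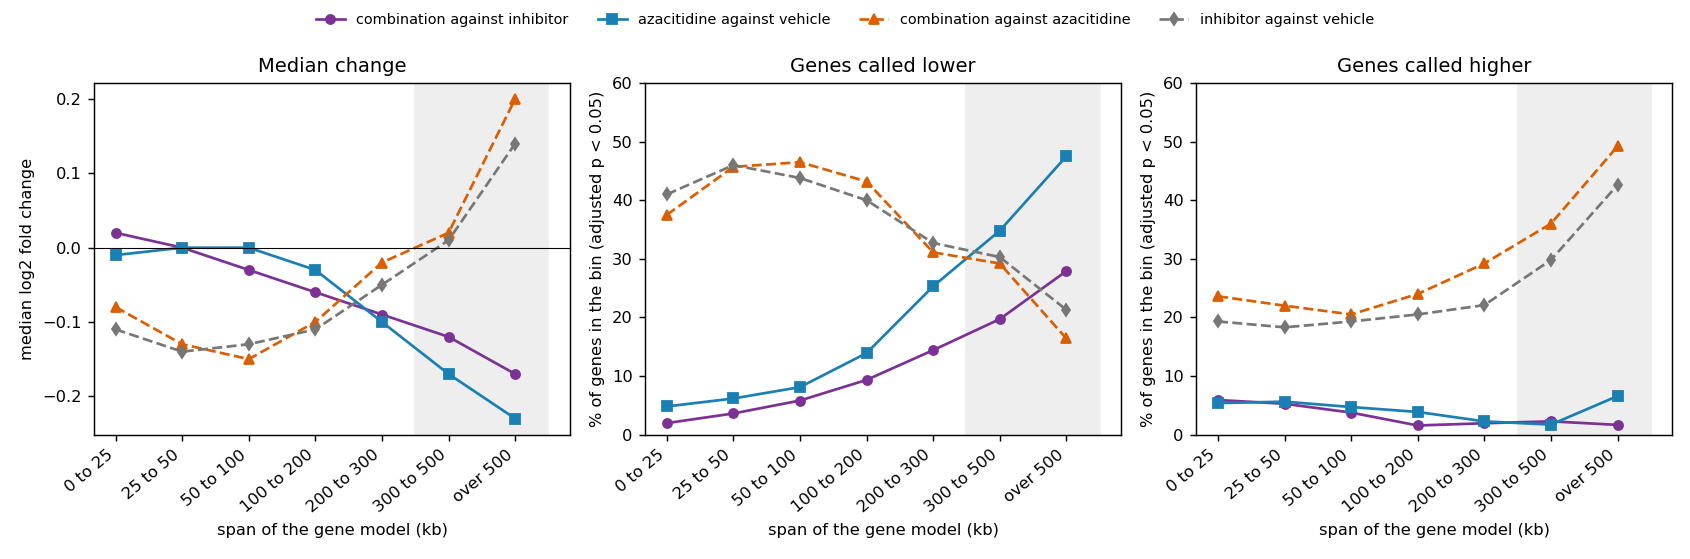
Expressed genes grouped by the span of their gene model in kb (horizontal axis; grey marks the bins over 300 kb). The panels give the median log2 fold change, the percentage called lower and the percentage called higher at an adjusted p under 0.05, for the 2 comparisons of azacitidine (solid) and the 2 of the inhibitor (dashed). The azacitidine lines fall with span to -0.17 and -0.23, and the inhibitor lines first fall and then climb to 0.20 and 0.14, in genes over 500 kb.

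Long genes also differ from others in base composition and exonic length, and both move with the comparison. The exonic GC content had a median of 45.0% in 237 long genes and 48.8% in the shorter expressed genes. Within bins of GC content, the combination against inhibitor median was -0.19 in long genes and -0.07 in shorter ones under 42% GC, -0.14 and -0.01 at 42 to 46%, -0.09 and 0.03 at 46 to 50%, and -0.12 and 0.02 over 50%. The long genes were lower in each of these bins. By exonic length, the medians were -0.12 in long genes and 0.01 in shorter ones under 6 kb of exon, -0.11 and -0.01 at 6 to 10 kb, -0.16 and -0.05 at 10 to 20 kb, and -0.11 and -0.08 over 20 kb, where the 2 came closest. With an offset for GC and exonic length, 49 long genes fell and the median was -0.09.

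Genes that start beside a long gene offer a comparison within one stretch of DNA. A partner was a tested gene under 100 kb on the opposite strand whose 5′ end lay within 1000 bases of that of the long gene, and 20 long genes had one of at least 5 CPM in vehicle. The partner had the higher log2 fold change in 18 of 20 pairs in the combination against the inhibitor. The medians were -0.14 for the long genes and -0.01 for the partners, 5 long genes and 1 partner fell, and none rose. These counts stand beside 21.8% of the 239 long genes, 4.38% of the shorter expressed genes and 2.83% of all genes tested that fell. The shares that rose were 2.09%, 4.67% and 4.51%. So few calls show no difference from these shares. The exceptions were BBS9 with RP9 and UBA6-DT with UBA6. In azacitidine against vehicle, as a description, the partner was higher in 19 of 20 pairs, with medians of -0.21 for the long genes and 0.04 for the partners. Over all 55 tested pairs, lower partners included, the partner was higher in 41 and 46. Against azacitidine the partner was higher in 4 of the 20 pairs, though in 32 of all 55.

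FAF1, an adaptor of ubiquitin and the VCP segregase whose promoter is printed above, had 99.4, 106 and 103 CPM in the combination, against 125, 126 and 131 CPM in the inhibitor. The log2 fold change was -0.30 ± 0.06, adjusted p = 0.00182 (edgeR), while its partner CDKN2C, a cyclin-dependent kinase inhibitor, was at 0.05, adjusted p = 0.69. In the other pairs whose long gene fell, the partner was also higher, but by less in most. The difference was 0.35 at FAF1, 0.38 at TBC1D22A, 0.15 at ACACA, 0.10 at ADK and 0.08 at TIAM1. Differences between partners were not tested. TBC1D22A, a GTPase-activating protein of Rab proteins, fell (-0.38 ± 0.06), and TBC1D22A-DT was at 0.00. ACACA, acetyl-CoA carboxylase, fell (-0.19), and TADA2A, a subunit of histone acetyltransferase complexes, was at -0.04. ADK, adenosine kinase, fell (-0.21 ± 0.06), and AP3M1, an adaptor subunit of vesicle coats, was at -0.11. TIAM1, a Rac exchange factor, fell together with its antisense partner, at -0.37 and -0.30. Counting ignored strand, and several partners share exonic bases with other genes, DUS4L 41.7% and CDKN2C 22.4% of them. These values are less certain than others for that reason.

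**Figure D5:**
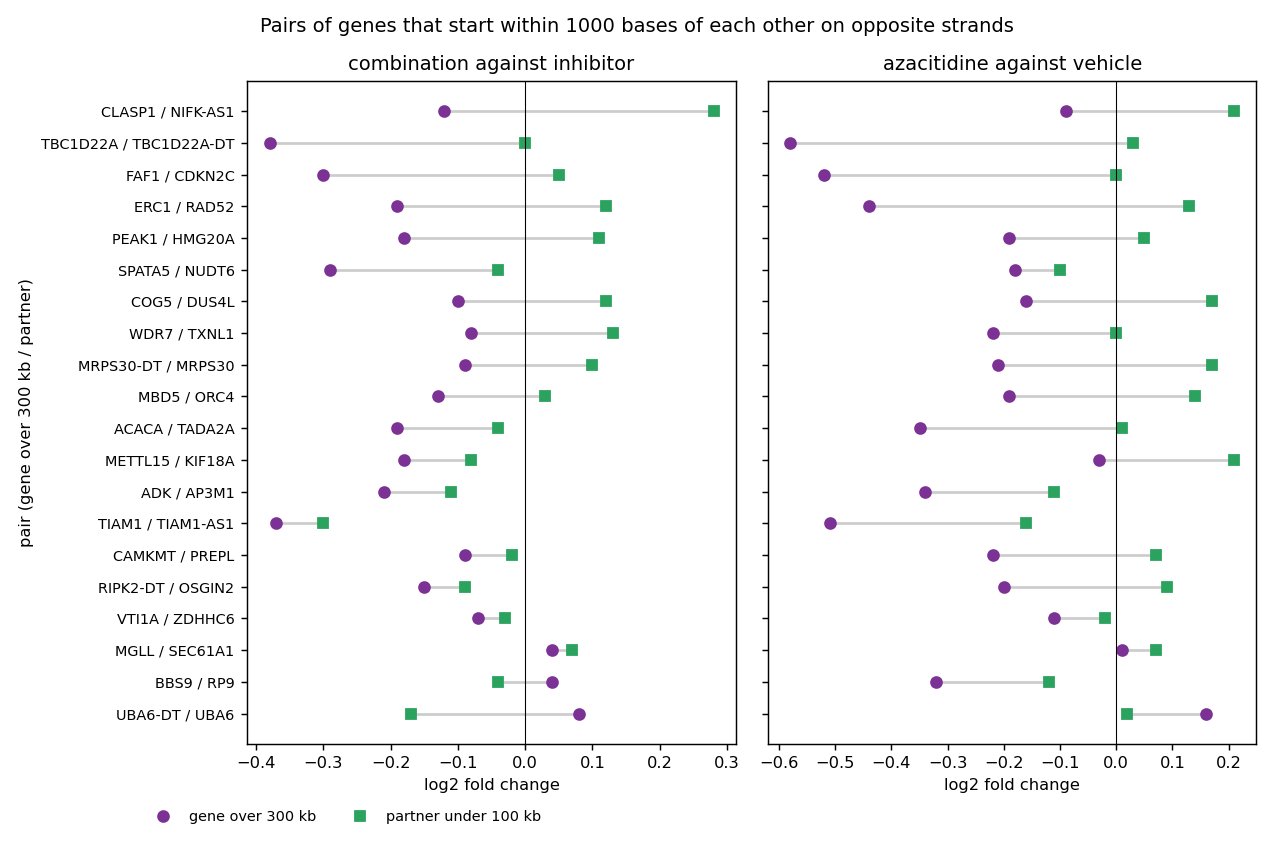
Log2 fold change of 20 long genes (purple circles) and of the short genes that start within 1000 bases of them on the other strand (green squares), in the combination against the inhibitor (left) and in azacitidine against vehicle (right). Pairs are ordered by the difference on the left; the partner lies to the right of the long gene in 18 pairs on the left and 19 on the right.

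Genes that lie wholly inside the spans of the long genes were mostly too low to test. Of 1307 such genes 1259 were not annotated as protein-coding, and 67 of these were tested. Of the 67, 3 rose and 1 fell in the combination against the inhibitor, beside 4.51% and 2.83% of all genes tested. Their median log2 fold change was 0.09, against 0.01 over all genes, and so few calls show no difference from those shares.

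The combination against azacitidine alone compares the inhibitor in cells that also had azacitidine. Again no vehicle library is compared, though vehicle entered the shared fit. Here 94 long genes rose and 62 fell, 39.3% and 25.9%, where 28.7% and 25.1% of all genes did. Among the shorter expressed genes 22.9% rose and 41.6% fell. The median log2 fold change was 0.08 in the long genes, 0.01 over all genes and -0.10 in the shorter expressed genes. With the offset for GC and exonic length 115 long genes rose and 40 fell, and with a stricter filter on low counts 47.3% of those tested rose and 20.1% fell, with medians of 0.14 and 0.15. The balance between directions thus depended on these settings. In the shorter expressed genes the medians moved as well, to -0.06 with the offset and -0.03 with the stricter filter. The long genes' median was above theirs by 0.21 and 0.18, beside 0.18 in the fit reported. Without the pair of high mitochondrial share, 84 rose and 57 fell. In 99 long genes every combination library was above every azacitidine library, and in 56 every one was below, against 29.4% and 26.5% of all genes tested.

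PRKCB led the rises. It encodes protein kinase C beta, which carries the B-cell receptor signal towards NF-kappaB, and spans chr16:23835983-24220611. PRKCB had 188, 192 and 194 CPM in the combination, against 66.9, 66.8 and 68.6 CPM in azacitidine, 2.86-fold higher (log2 1.52 ± 0.05, adjusted p = 2.36e-18, edgeR). TLN2, the talin that links integrins to actin, had 19.3, 18.3 and 18.7 CPM in the combination, against 8.30, 7.24 and 7.26 CPM in azacitidine (1.31 ± 0.10). VAV3, a guanine nucleotide exchange factor used by antigen receptors, had 27.7, 32.7 and 31.9 CPM in the combination, against 12.5, 13.2 and 12.5 CPM in azacitidine (1.29 ± 0.09). All 3 were more than doubled in each library. CHST11, a chondroitin sulfotransferase, had 52.5, 52.3 and 55.9 CPM in the combination, against 24.4, 25.1 and 21.8 CPM in azacitidine (1.18 ± 0.07). PPP3CA, the catalytic subunit of calcineurin, had 24.9, 29.4 and 27.5 CPM in the combination, against 11.6, 12.9 and 12.4 CPM in azacitidine (1.16 ± 0.08).

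SND1, a nuclease and RNA-binding protein, had the highest level per kb of exon of all the long genes. It had 608, 583 and 576 CPM in the combination, against 275, 283 and 284 CPM in azacitidine (1.08 ± 0.05). PDE4B, which degrades cyclic AMP, had 38.4, 43.8 and 39.5 CPM in the combination, against 19.7, 19.9 and 19.1 CPM in azacitidine (1.06 ± 0.07). MAML3, a Notch co-activator, rose by 1.15 ± 0.11, NEDD4L, a ubiquitin ligase, by 1.13 ± 0.11, and UBE2E2, a ubiquitin-conjugating enzyme, by 1.07 ± 0.07 on the log2 scale. The 10 leading rises were picked among genes whose groups did not overlap, so their separation is not a finding of its own.

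ZNF385B, a zinc-finger protein, led the falls with 47.6, 42.8 and 47.5 CPM in the combination, against 88.0, 80.2 and 81.5 CPM in azacitidine (-0.85 ± 0.06, adjusted p = 1.71e-11, edgeR). SYNE1, which encodes nesprin-1, had 38.1, 43.9 and 47.9 CPM in the combination, against 72.8, 74.0 and 83.1 CPM in azacitidine (-0.81 ± 0.07). MGLL, monoacylglycerol lipase, had 37.7, 35.1 and 39.8 CPM in the combination, against 62.0, 59.3 and 58.6 CPM in azacitidine (-0.67 ± 0.07). The leading falls were likewise picked for a lack of overlap between groups. JMJD1C, a member of a histone demethylase family, had 36.5, 39.7 and 42.8 CPM in the combination, against 64.4, 62.1 and 60.4 CPM in azacitidine (-0.64 ± 0.07). KCNQ5 fell by 0.64 ± 0.08 here as well, so that it was lower in the combination than in either drug alone. ZNF407 fell by 0.67 ± 0.13, ULK4, a pseudokinase, by 0.60 ± 0.11, ATP9B, of the P4-ATPase family, by 0.57 ± 0.09, FTX by 0.55 ± 0.09 and MKLN1, a subunit of the CTLH ubiquitin ligase, by 0.51 ± 0.09.

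The inhibitor alone against vehicle is a description, since vehicle chose the genes. By the same threshold 79 long genes were higher and 67 lower, 33.1% and 28.0%, beside 26.4% and 24.9% of all genes tested. Of the shorter expressed genes 19.3% were higher and 42.3% lower. The median log2 fold change was 0.03 in the long genes and -0.12 in the shorter expressed ones. UTRN, the dystrophin relative utrophin, had 36.5, 34.5 and 37.5 CPM in the inhibitor, against 12.1, 15.3 and 11.6 CPM in vehicle, a log2 fold change of 1.47 ± 0.09. PDE4B had 35.8, 38.2 and 36.7 CPM in the inhibitor, against 12.1, 14.3 and 13.5 CPM in vehicle (1.47 ± 0.08). PRKCB had 204, 209 and 202 CPM in the inhibitor, against 78.0, 84.3 and 72.9 CPM in vehicle (1.38 ± 0.05). CELF2, an RNA-binding splicing regulator, was at 1.07 ± 0.07, and VAV3 and PPP3CA were at 1.22 ± 0.08 and 1.17 ± 0.08. The lowest were ZNF385B (-0.93 ± 0.06), ATP9B (-0.92 ± 0.09), CUX2, a homeodomain factor (-0.84 ± 0.07), SYNE1 (-0.80 ± 0.07), MGLL (-0.70 ± 0.07) and ULK4 (-0.63 ± 0.10).

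The 2 comparisons of the inhibitor, with and without azacitidine, share no library either, and are likewise a description. The log2 fold changes had the same sign in 205 of the 239 genes (85.8%), with Pearson's r = 0.89 across genes. That was near the 84.1% of all genes tested and the 87.7% of the shorter expressed genes. Of the 94 genes that rose in the combination against azacitidine, 66 (70.2%) were called higher in the inhibitor against vehicle, which is 83.5% of the 79 called there. Of the 62 that fell, 47 (75.8%) were called lower there, 70.1% of 67, and none was called in opposite directions. Of all 239 long genes 33.1% were called higher in the inhibitor against vehicle and 28.0% lower. Here too the overlap over all genes tested is not given.

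By span, the combination against azacitidine showed no single trend. The median log2 fold change of expressed genes was -0.08 at 0 to 25 kb, -0.13 at 25 to 50 kb, -0.15 at 50 to 100 kb, -0.10 at 100 to 200 kb, -0.02 at 200 to 300 kb, 0.02 at 300 to 500 kb and 0.20 over 500 kb. It was thus lowest at 50 to 100 kb and highest in the longest genes, and the correlation with log span was -0.03 over 9732 expressed genes and 0.08 over the 239 long ones. The share that rose was 23.6% in the shortest bin and 49.2% over 500 kb. In each bin of GC content and of exonic length the long genes had the higher median. Over 50% GC, for example, it was 0.26 in 42 long genes and -0.02 in 4249 shorter ones.

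The combination against vehicle, also a description, had 61 long genes higher and 108 lower, 25.5% and 45.2%, beside 29.6% and 27.5% of all genes. Among the shorter expressed genes 22.4% were higher and 45.1% lower, so the share of long genes called lower was like theirs. The summed level was 3.29% lower than in vehicle, but 0.699% higher when scaled to the counts outside the mitochondrial genes, so its direction depended on the scaling. PDE4B was at 1.61 ± 0.08, PRKCB at 1.30 ± 0.05, UTRN at 1.28 ± 0.09, VAV3 at 1.12 ± 0.08, CELF2 at 1.11 ± 0.07 and CHST11 at 1.06 ± 0.07. The lowest were ZNF385B (-1.19 ± 0.06), ATP9B (-1.16 ± 0.09), KCNQ5 (-0.98 ± 0.08), SYNE1 (-0.97 ± 0.07), CUX2 (-0.96 ± 0.07) and PRKCE, protein kinase C epsilon (-0.92 ± 0.10).

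By role, 103 of the long genes were on at least 1 of 8 lists. Their counts stand beside 2.83% that fell and 4.51% that rose of all genes tested in the combination against the inhibitor (21.8% and 2.09% of the long genes). In the combination against azacitidine 25.1% fell and 28.7% rose of all genes tested (25.9% and 39.3% of the long genes). B-cell and haematopoietic transcription factors counted 10 long genes, of which 2 fell (NFIB and TCF12) and none rose in the combination against the inhibitor, with a median of -0.05. Against azacitidine, 2 rose and 1 fell. EBF1, which specifies the B lineage, had 17.7, 18.2 and 19.5 CPM in the combination, against 16.0, 15.4 and 14.5 CPM in azacitidine (0.28 ± 0.09). AFF3, a nuclear protein of the AFF family found in lymphoid cells, rose by 0.27 ± 0.06. BACH2, a repressor that holds back plasma-cell differentiation, had 44.7, 43.2 and 48.6 CPM in the combination, against 52.5, 50 and 56.1 CPM in azacitidine (-0.21 ± 0.06). EBF1 and BACH2 lost these calls in alternatives, EBF1 without combination replicate 3 or azacitidine replicate 3 (adjusted p up to 0.0624) and BACH2 with a stricter filter on low counts (0.0639). RUNX1, TCF4 and FOXP1 did not pass the test in either comparison, at -0.07, -0.03 and -0.01 against the inhibitor.

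Chromatin and transcription regulators counted 16 long genes, of which 5 fell and none rose in the combination against the inhibitor. These were SMYD3, the methyltransferase KMT2C (-0.38 ± 0.07), JMJD1C (-0.37 ± 0.07), the cohesin subunit STAG1 (-0.31 ± 0.07) and the Mediator subunit MED13L (-0.26 ± 0.07). Set against azacitidine, 6 rose and 5 fell in the combination, shares near those of all long genes (39.3% and 25.9%). HDAC9, a class IIa histone deacetylase, had 40.1, 45.0 and 43.4 CPM in the combination, against 24.4, 24.9 and 25.1 CPM in azacitidine (0.80 ± 0.07).

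Kinases, phosphatases and second-messenger genes counted 16. Against the inhibitor 2 fell (ITPR2, an inositol trisphosphate receptor, and ADK) and MAPK10 rose. Against azacitidine 10 of the 16 rose and 3 fell, beside 28.7% and 25.1% of all genes tested, and the median was 0.30. Beside PRKCB, PPP3CA and PDE4B, the rises included ADK, with 44.9, 43.5 and 43.6 CPM in the combination, against 30.0, 30.0 and 29.7 CPM in azacitidine. Another conventional protein kinase C, PRKCA, rose by 0.69 ± 0.10, while PRKCE fell by 0.50 ± 0.10.

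Regulators and effectors of small GTPases counted 21, and 8 of them fell in the combination against the inhibitor while none rose (median -0.16), beside 2.83% and 4.51% of all genes tested and 21.8% and 2.09% of the long genes. The 8 were DIAPH2, TBC1D22A, TIAM1, DIAPH3, DENND1A, TBC1D5, ARHGAP15 and DOCK2. DOCK2, a Rac activator of lymphocytes, was at -0.22 ± 0.05. Relative to azacitidine 10 rose and 4 fell, beside 28.7% and 25.1% of all genes. IQSEC1, an exchange factor of ARF GTPases, rose by 0.40 ± 0.07, and ARHGEF3, a guanine nucleotide exchange factor, fell by 0.44 ± 0.07.

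Membrane traffic and lipid transfer counted 19, of which 7 fell and none rose in the combination against the inhibitor (median -0.18), beside 2.83% and 4.51% of all genes tested. Beside VPS13B these included LRBA, a protein of vesicle traffic whose loss in people causes immune deficiency (-0.40 ± 0.07), and the exocyst subunit EXOC4 (-0.23 ± 0.07). Relative to azacitidine 6 rose and 8 fell, where 28.7% and 25.1% of all genes did. SNX29, a sorting nexin, had 46.3, 45.1 and 48.1 CPM in the combination, against 23.3, 24.9 and 24.7 CPM in azacitidine (0.94 ± 0.06). KIF16B, an endosome motor, rose by 0.50 ± 0.09, and VTI1A, a SNARE, fell by 0.39 ± 0.06.

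DNA repair, replication and genome stability counted 11, of which 3 fell and none rose against the inhibitor (median -0.17), near the 21.8% of all long genes that fell. POLA1, the catalytic subunit of DNA polymerase alpha, had 76.0, 86.7 and 72.8 CPM in the combination, against 99.6, 102 and 102 CPM in the inhibitor (-0.36 ± 0.06, adjusted p = 0.000461, edgeR). SPIDR, a scaffold of homologous recombination, was at -0.34 ± 0.07, and STAG1 was the third. Compared with azacitidine, 3 rose and 5 fell. BABAM2, a subunit of the BRCA1-A complex, rose by 0.71 ± 0.08, and STAG2, the other cohesin STAG subunit, fell by 0.43 ± 0.06.

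The ubiquitin pathway counted 6 long genes, none of which passed the test against the inhibitor. MARCHF1, a membrane-bound ligase that acts on MHC class II, came closest at -0.35 ± 0.11, adjusted p = 0.054 (edgeR). Against azacitidine NEDD4L, UBE2E2 and ZFAND3, a zinc-finger protein related to ubiquitin-binding ones, rose and none fell. UBE2E2 had 37.8, 38.9 and 39.3 CPM in the combination, against 18.8, 18.9 and 18.1 CPM in azacitidine.

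Large genes linked to common fragile sites counted 9, and 4 of these fell in the combination against the inhibitor, with a median of -0.23: DIAPH2, WWOX, FAF1 and EXOC4. WWOX, an oxidoreductase and tumour suppressor at chr16:78099400-79212667, had 11.4, 11.8 and 11.7 CPM in the combination, against 16.1, 14.7 and 15.8 CPM in the inhibitor (-0.41 ± 0.08, adjusted p = 0.00253, edgeR). In azacitidine against vehicle WWOX was at -0.40 ± 0.08. Against azacitidine 6 rose and 1 fell in the combination. IMMP2L, a mitochondrial inner-membrane peptidase subunit, rose by 0.61 ± 0.10, and DMD was the 1 that fell (-0.23 ± 0.07).

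The longest genes did not all move alike. DMD spans 2242 kb, and had 54.1, 58.5 and 55.4 CPM in the combination, against 49.5, 50.5 and 52.7 CPM in the inhibitor. Its groups did not overlap, yet it did not pass the test (0.15 ± 0.07, adjusted p = 0.201, edgeR), except with the offset for GC and exonic length (0.32, adjusted p = 0.00116). TBC1D5, which inactivates Rab7, spans 1288 kb with a single gap of 702 kb, and had 87.0, 85.9 and 86.6 CPM in the combination, against 100, 107 and 103 CPM in the inhibitor (-0.25 ± 0.05). RUNX1 at 1217 kb, AUTS2 at 1195 kb and SPAG16 at 1126 kb did not pass, at -0.07 ± 0.08, -0.17 ± 0.08 and -0.12 ± 0.11, and WWOX at 1113 kb fell.

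Per kb of exon, which allows levels to be compared between genes, SND1 was highest in vehicle at 54.5 CPM per kb. It was followed by ABLIM1, an actin-binding protein (34.9), ZNF385B (19.5), FCHSD2, a membrane-bending protein (18.1), FUT8, the core fucosyltransferase (17.0), and FAF1 (16.8). Of these 6, ZNF385B and FAF1 fell in the combination against the inhibitor. ZNF385B had 47.6, 42.8 and 47.5 CPM in the combination, against 51.4, 60 and 55.9 CPM in the inhibitor (-0.27 ± 0.07), and lost the call without inhibitor replicate 2.

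The interaction compares the azacitidine effect with and without the inhibitor and holds the vehicle libraries, so it is a description too. By the same threshold 5 long genes were higher and 2 lower, beside 0.263% and 0.453% of all genes tested. The median interaction was 0.05 in the long genes and 0.01 over all genes. UBE2E2 had a log2 fold change of 0.00 in the combination against the inhibitor and of -0.49 in azacitidine against vehicle. GMDS, with 31.5, 30.9 and 32.7 CPM in the combination, against 35.5, 33.9 and 36.3 CPM in the inhibitor, was at -0.14 with the inhibitor and at -0.62 without it. SNX29 was at -0.10 with the inhibitor and at -0.56 without it. JMJD1C ran the other way, at -0.37 with the inhibitor and 0.10 without it.

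Factors of transcription elongation, pausing and termination, and topoisomerases, were listed as well, 67 of them, with 64 tested. Since the list mixes factors that promote elongation with ones that pause or end transcription, its counts give no direction for elongation. In the combination against the inhibitor 3 of the 64 fell and none rose, beside 2.83% and 4.51% of all genes tested, and the median was -0.06. The 3 were CCNT1, a cyclin of the elongation kinase P-TEFb (-0.23, adjusted p = 0.0351, edgeR), MLLT1 (-0.18, adjusted p = 0.0353) and SPEN (-0.22, adjusted p = 0.0473). Compared with azacitidine, 37 of the 64 fell and 9 rose, beside 25.1% and 28.7% of all genes tested and 41.6% and 22.9% of the shorter expressed genes. TOP1, the topoisomerase that relieves supercoils in transcribed genes, was at -0.58, CDK12, a kinase of the elongating polymerase, at -0.55, and ELL2, an elongation factor of secretory B cells, at 1.6.

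Genes on either side of the rule's limits are given as values. The long genes nearest 300 kb were SIPA1L3, KIF16B, KMT2C and USP2-AS1, with log2 fold changes in the combination against the inhibitor of -0.15, -0.08, -0.38 and -0.02. Those just under it were WDFY4, KIAA1549L, CHCHD3 and DTNB, with -0.06, 0.03, -0.22 and -0.14. Just inside 5 CPM lay COMMD10, TRPS1, PRANCR and PCCA (5.30 to 5.41 CPM in vehicle), with 0.08, -0.17, -0.01 and -0.04. Just outside lay NREP, LINC00598 and SCAPER (4.87 to 4.96 CPM), with 0.07, 0.77 and -0.37. The 4 genes left out of the rule were at -0.45 for RPTOR, -0.42 for CAMK1D, -0.40 for TRAPPC9 and -0.31 for STX8. With them kept, 56 of 243 fell.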

How the data were processed

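Poly(A) RNA of 12 OCI-Ly7 libraries was sequenced after random-primed reverse transcription, per the labels' protocols. The values are expected counts that the authors deposited: exonic reads of 78892 genes (release 114 annotation of GRCh38) were tallied with featureCounts 2.1.1, per the file headers. Multi-mapped reads entered as fractions, strand was ignored, and reads on several genes at once were dropped. Splitting can blur near-identical copies. Input was paired, but the command in the header does not ask for pairs to be counted, and it is not known if mates were counted singly. If both mates were counted, sampling noise is larger than whole counts imply. The submitters' processing notes name cutadapt 5.1, STAR 2.7.11b and Subread 2.1.2. Of the values 96.9% were whole within 1e-06. The command in the header names 16 libraries, of which 4 have no column in the table used and were not analysed here.

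Counts were rounded to whole numbers and filtered with filterByExpr of edgeR 4.0.16 in R 4.3.3. All 12 libraries were fitted with TMM scaling and 1 mean per group, and tested two-sided with the edgeR quasi-likelihood test and Benjamini-Hochberg adjustment over 17869 genes. CPM is a count divided by the library's total and scaled to 1e+06. SE is the log2 fold change divided by the root of F. Chi-square per degree of freedom between replicate libraries was 3.57 to 29.3, where independent counts give about 1 and counted mates about 2. Span, exon blocks and exonic length come from the coordinates in the authors' table, GC content from GENCODE 29 transcripts.

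The members and lists were chosen with earlier results of these data known, and 20 genes were taken out of role lists for a doubtful role after values had been seen; the lists carry no test. Named genes are the 10 leading rises and 10 leading falls among called genes without overlap in each comparison with a single drug, the 6 highest and 6 lowest without overlap, called or not, in each comparison with vehicle, up to 4 each way in the interaction, up to 4 per role list, the 6 longest, the 6 highest per kb and the 4 nearest each edge of the rule. Others are named to complete counts or as partners, chosen after their values were seen. Some genes that the rule names are not reported here. Alternatives were DESeq2 1.42.0, limma voom (limma 3.58.1), other scaling and filters, replicate blocks, left-out libraries and other cut-offs for members, and, chosen after seeing the data, an offset for GC and exonic length. Simulated data with known changes were used to check the fits. The chi-square between replicate libraries pooled genes of high and low level. It does not give the part that counting error has in genes near 5 CPM.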

Additional observations from a re-analysis of the deposited data

Results flagged for a closer look

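In 7 long genes the azacitidine effect with the inhibitor differed from that without it by the interaction test (edgeR, adjusted p under 0.05 over all genes), as log2 differences. It was higher with the inhibitor in UBE2E2 (0.48), GMDS (0.47), SNX29 (0.47), CTNNA1 (0.39) and ZFAND3 (0.39), and lower in FTX (-0.51) and JMJD1C (-0.47). The vehicle libraries that chose the genes by level enter this test. Over the alternatives SNX29 kept its call, while the others each missed the threshold in some. FTX missed it in 16 (edgeR adjusted p up to 0.376) and ZFAND3 in 14 (up to 0.116), for ZFAND3 with any library left out but combination replicate 2. JMJD1C, CTNNA1 and UBE2E2 missed it in 5 each (up to 0.093, 0.0723 and 0.0749) and GMDS in 3 (up to 0.0553).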

How the results depend on the processing

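Of 285 counts of called long genes recomputed under an alternative, 252 stayed within 1.5 times the value reported, and none of the named genes reversed. The share that rose in the combination against the inhibitor, 2.09%, was 1.26% with DESeq2 size factors, library totals only or no filter on low counts, and 0.837% with only the groups compared or without the pair of highest mitochondrial share. Leaving out single libraries gave 0.418% to 2.51% for it, with 0.837% without combination replicate 1 or 3 or inhibitor replicate 2, 0.418% without inhibitor replicate 1 or 3, and 1.26% without azacitidine replicate 2 or vehicle replicate 1, and 12.1% to 24.7% for the share that fell. With the offset for GC and exonic length the share that fell in the combination against azacitidine was 16.7%, and the share higher in azacitidine against vehicle 5.02%. That last share was 4.6% with DESeq2 and 5.08% for spans over 400 kb, and leaving out single libraries gave 2.09% to 4.18%. The share called in the interaction, 2.93%, was 5.86% without a filter, 4.6% with the stricter filter, 7.95% with DESeq2, 1.69% for spans over 400 kb and 0.418% to 9.21% without single libraries. It was 1.67% without combination replicate 1, 9.21% without combination replicate 2, 0.418% without inhibitor replicate 2, 0.837% without inhibitor replicate 3 or vehicle replicate 3, 5.44% without azacitidine replicate 1, 1.26% without azacitidine replicate 2 or 3, and 1.67% without vehicle replicate 1. The causes were not tested. Whether the replicate numbers pair the samples was not settled. Deviations of same-numbered libraries correlated between -0.212 and 0.383, highest for combination replicate 2 with azacitidine replicate 2. Differently numbered libraries were not set beside them. With the title number as a block 21.8% fell in the combination against the inhibitor, and with the library number 24.3%, while the interaction share moved to 4.6% with the library number. Genes near 5 CPM were measured less closely, with an SE of 0.12 for COMMD10 and 0.13 for PRANCR against 0.05 for PRKCB, and small changes in them were not detectable.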
